A study of Homo sapiens with 9 samples.

Results

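MX1, the dynamin-like GTPase that blocks the replication of influenza and other viruses, was examined with 8 other interferon-stimulated genes in HEK293 cells carrying Cas9, Cas9 with Cre or Cas9 with Flpo. MX1 was chosen by its measured level, which was higher in the Cre libraries than in the Flpo libraries. ISG15, IFIT1, IFIT2, IFIT3, OAS1, OAS3, IFI6 and IRF9 were added as interferon-stimulated genes to be read beside it. The 9 genes were found by symbol among the 35876 symbols of the deposited table, and 6 of them entered the tests among 11905 genes with enough counts. MX1, OAS3 and IRF9 lay above 3 counts in all 9 libraries. IFIT3, OAS1 and IFI6 did so in 8 libraries, IFIT1 in 6, ISG15 in 5 and IFIT2 in 4.

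HEK293 is an established human embryonic kidney line that carries adenovirus E1 genes. The series holds 9 RNA-seq libraries made from TRIzol-extracted RNA with a TruSeq kit, 3 for each of the genotypes CC_Cas9, CC_Cas9_Cre and CC_Cas9_Flpo. All 3 groups carry Cas9, a nuclease directed by a guide RNA, and the other 2 add Cre or Flpo, recombinases that act at loxP and FRT sites. The labels do not explain CC, name no target gene, and do not say whether the cells were clones, how the proteins were introduced or whether replicates were separate cultures, so p-values measure only the spread between these samples.

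Interferons bind cell surface receptors, whose kinases JAK1 and TYK2 phosphorylate STAT proteins. With IRF9 these form the complex ISGF3, which binds interferon-stimulated response elements in the promoters of antiviral genes. Cytosolic sensors of viral RNA can also switch on several of these promoters through IRF3, without secreted interferon.

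The promoter stretches shown here hold letter matches to interferon response motifs, so that the sequences of the genes can be read beside their values. RefSeq promoters of GRCh38.p14, taken over 250 bases before and 50 after each start, were matched for 8 of the 9 genes. Only the 250 bases before each start were searched, on both strands. The core of the response element is GAAA, any 2 bases and GAAA. A looser form with GNAA in the first place, which overlaps the core, and the gamma-activated site TTCNNNGAA were searched as well. Capitals mark the core or its looser form on either strand, and in IRF9 alone the gamma-activated site. The gamma-activated site of MX1 lies in its stretch without being marked, and that of OAS1 lies outside its stretch. Sequences are written 5′ to 3′ on the gene's strand. The stretches of MX1, OAS1 and IRF9 and the downstream stretch of OAS3 lay in annotated exons and are kept short.

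MX1, the third RefSeq start, chr21:41431844-41431873, plus strand: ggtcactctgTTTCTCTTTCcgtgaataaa

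ISG15, chr1:1013364-1013419, plus strand: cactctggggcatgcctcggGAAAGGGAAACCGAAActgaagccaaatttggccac

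IFIT1, chr10:89392487-89392545, plus strand: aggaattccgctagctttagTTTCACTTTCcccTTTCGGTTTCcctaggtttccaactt

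IFIT3, first start, chr10:89327821-89327893, plus strand: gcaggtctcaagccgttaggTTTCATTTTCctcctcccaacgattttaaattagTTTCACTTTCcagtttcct

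OAS1, chr12:112906934-112906961, plus strand, looser form: tcccttctgaGGAAACGAAAccaacagc

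OAS3, chr12:112938311-112938351, plus strand: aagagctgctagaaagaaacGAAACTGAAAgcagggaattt

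OAS3, downstream, chr12:112938452-112938473, plus strand: agccgggcggGAAAACGAAAcc

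IFI6, chr1:27672256-27672368, minus strand: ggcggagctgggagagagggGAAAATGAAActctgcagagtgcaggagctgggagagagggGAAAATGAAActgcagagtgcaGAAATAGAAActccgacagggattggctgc

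IRF9, gamma-activated site, chr14:24161192-24161220, plus strand: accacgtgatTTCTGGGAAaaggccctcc

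The response element core was found in 7 of the 11 promoters of these genes, against 3.02% of all 35116 promoters in the table. It occurred in MX1, ISG15, IFIT1, IFIT3, OAS3 and IFI6. The looser form added OAS1, so that 8 of the 11 promoters held it, against 6.86% of all promoters. The gamma-activated site was present in promoters of MX1, OAS1 and IRF9, and in 6.57% of all promoters. A match describes the letters only and is not a measurement of binding.

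Library totals ran from 213907 to 8833491 counts, a 41.3-fold range. The shallowest library was Cre replicate 2, and every Flpo library was deeper than every Cas9 and every Cre library. Depth and the Flpo genotype therefore cannot be told apart. Counts were scaled by edgeR's TMM method to CPM, the count per 1e+06 counts of the library, and 3 counts corresponded to 0.479 to 2.57 CPM in 8 libraries and to 11.2 CPM in Cre replicate 2. The extraction note speaks of livers, but 7 liver markers summed to between 0.345 and 5.11 CPM, and ALB, the plasma albumin gene, had at most 5 counts. PAX2, a kidney lineage gene, had at most 1 count, while the intermediate filament genes NEFL, VIM, KRT8 and KRT18 were above the floor in all 9 libraries.

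MX1 lies on chr21 from 41420304 to 41459214 on the plus strand of GRCh38. An antisense gene, AP001610.1, overlaps it and was not analysed here, and reads of the pair cannot be told apart if the counting ignored strand. Its TMM-scaled levels were 21.9, 11.3 and 4.78 CPM in Cas9, 18.0, 33.9 and 34.1 CPM in Cre, and 1.88, 5.72 and 1.88 CPM in Flpo. All 3 Cre libraries lay above all 3 Flpo libraries, and the Cas9 libraries overlapped both. The group means ± SD (n = 3 each) were 12.7 ± 8.66 CPM for Cas9, 28.7 ± 9.21 for Cre and 3.16 ± 2.22 for Flpo. Cre and Cas9, neighbours in that order, overlapped through Cas9 replicate 1 and Cre replicate 1, and Cas9 and Flpo overlapped through Cas9 replicate 3 and Flpo replicate 2.

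The Cre against Flpo contrast chose MX1, so its difference there is given as a description. The fitted log2 fold change was 3.17 (SE 0.75), a 9.00-fold difference, or 3.51 relative to the median of all tested genes, which itself lay at −0.34. In the same contrast 20.5% of all tested genes passed an adjusted p of 0.05 by edgeR's quasi-likelihood test, 6.17% higher and 14.3% lower in Cre. Without TMM scaling the MX1 value was 3.93, and with the log2 library total as a covariate it was 1.20.

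**Figure D1:**
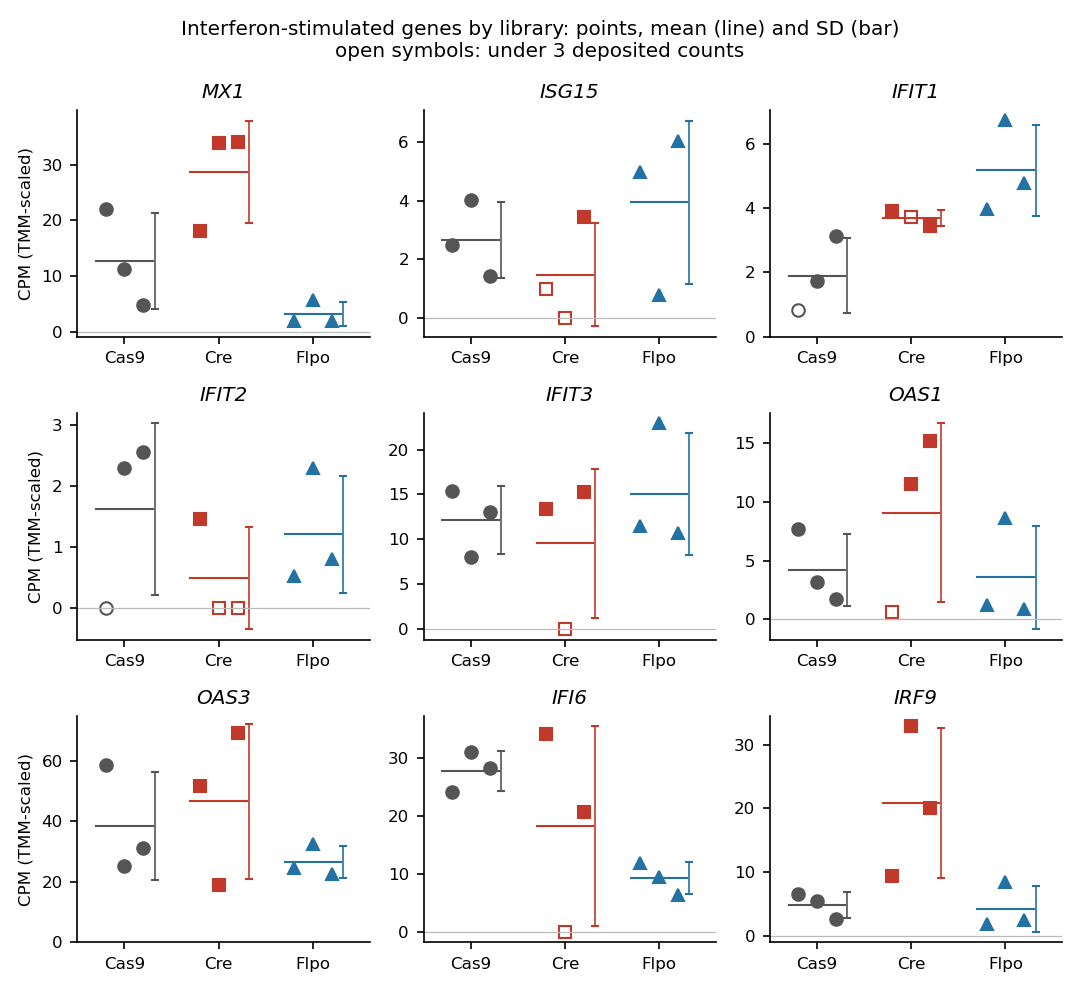
TMM-scaled CPM of each of the 9 genes by library, with the 3 libraries of each group as points (open where under 3 deposited counts), the mean as a line and the SD as a bar. MX1 in the Cre libraries (18.0 to 34.1 CPM) lies above the Flpo libraries (1.88 to 5.72 CPM), whereas IFIT3 and OAS3 overlap across the groups.

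The contrasts with the Cas9 cells compare the level of each gene in the Cre or Flpo libraries with that in the Cas9 libraries. They use the same Cre and Flpo libraries from which MX1 was picked and share their Cas9 libraries. For MX1 the log2 fold change of Cre against Cas9 was 1.19 (SE 0.71), with an edgeR adjusted p of 0.619 (0.266 to 1 over the alternatives run). The log2 fold change of Flpo against Cas9 was −1.98 (SE 0.72), with an unadjusted edgeR p of 0.0162 and an adjusted p of 0.155 (0.0292 to 0.747 over the alternatives). MX1 thus passed the threshold in neither contrast. Flpo replicate 2 was the highest Flpo library for MX1. Without that library the log2 fold change of Flpo against Cas9 was −2.67 with an edgeR adjusted p of 0.0292. In that fit 2685 of 12595 genes passed. Nothing is read from that call, because MX1 was chosen in part for its low level in the Flpo libraries.

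IRF9, the DNA-binding subunit of ISGF3, lies on chr14 from 24161053 to 24166565. Its scaled levels were 6.48, 5.50 and 2.55 CPM in Cas9, 9.36, 32.9 and 20.1 CPM in Cre, and 1.76, 8.38 and 2.45 CPM in Flpo. The Cre libraries lay above all Cas9 and all Flpo libraries, and Cas9 and Flpo overlapped. The means ± SD (n = 3 each) were 4.84 ± 2.05, 20.8 ± 11.8 and 4.20 ± 3.64 CPM. Against Cas9, IRF9 in Cre differed by a log2 fold change of 2.00 (SE 0.83), with an unadjusted edgeR p of 0.0313 and an adjusted p of 0.619. Without Cre replicate 2 that value was 1.57 with an edgeR adjusted p of 0.839. Flpo against Cas9 gave −0.23 (SE 0.79, edgeR adjusted p 0.893). The Cre against Flpo value, a description, was 2.23 (SE 0.81), and −0.28 with the library-total covariate. IRF9 shares exon sequence with AL136295.5, a protein-coding gene on the same strand that is also counted, so its level is uncertain.

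OAS1 and OAS3, enzymes that sense double-stranded RNA and make the 2′-5′ oligoadenylates that activate RNase L, are neighbours on chr12. OAS1 lies from 112906777 to 112933222 and is overlapped by the antisense gene AC004551.1. Its levels were 7.69, 3.19 and 1.75 CPM in Cas9, 0.611, 11.5 and 15.2 CPM in Cre, and 1.22, 8.67 and 0.856 CPM in Flpo. The lowest of the 9 values and the highest were both in Cre, and the 3 groups overlapped. The log2 fold change of OAS1 was 1.07 (SE 1.22) for Cre against Cas9 (edgeR adjusted p 0.72) and −0.19 (SE 1.14) for Flpo against Cas9 (edgeR adjusted p 0.94). Its direction rested on single libraries: Cre against Cas9 was −0.27 without Cre replicate 3, and Flpo against Cas9 was 0.47 without Cas9 replicate 1.

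OAS3, from 112938352 to 112973249, was the member with the most counts. It had 70.5, 43.9 and 109 deposited counts in Cas9, 106, 5.04 and 80.5 in Cre, and 142, 127 and 142 in Flpo. The scaled levels were 58.6, 25.2 and 31.2 CPM, then 51.8, 18.8 and 69.1 CPM, then 24.6, 32.5 and 22.7 CPM, and the 3 groups overlapped. The log2 fold change of OAS3 was 0.33 (SE 0.55) for Cre against Cas9 (edgeR adjusted p 0.803) and −0.53 (SE 0.55) for Flpo against Cas9 (edgeR adjusted p 0.606). Without Cre replicate 3 the first of these was −0.07.

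IFI6, which encodes a small mitochondrial and endoplasmic reticulum protein that protects cells from apoptosis, lies on the minus strand of chr1 from 27666061 to 27672218. Its levels were 24.1, 31.0 and 28.3 CPM in Cas9, 34.1, 0 and 20.6 CPM in Cre, and 11.9, 9.51 and 6.39 CPM in Flpo. All Flpo libraries lay below all Cas9 libraries, and the Cre libraries ran across the whole range. The 0 in Cre replicate 2 allows up to 11.2 CPM in that library. Means ± SD (n = 3 each) were 27.8 ± 3.47 CPM in Cas9, 18.2 ± 17.2 in Cre and 9.27 ± 2.77 in Flpo. Flpo against Cas9 gave a log2 fold change of −1.59 (SE 0.71), with an unadjusted edgeR p of 0.0446 and an adjusted p of 0.236 (0.112 to 0.605 over the alternatives). Cre against Cas9 gave −0.44 (SE 0.71, edgeR adjusted p 0.793), and −0.01 without Cre replicate 2.

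IFIT1, IFIT2 and IFIT3 encode tetratricopeptide proteins, of which IFIT1 binds viral RNA that lacks the methylation of a cellular cap and IFIT3 stabilises IFIT1. They are neighbours on the plus strand of chr10, from 89392546 to 89406486, from 89283694 to 89309276 and from 89327894 to 89340971. IFIT3 had levels of 15.4, 8 and 13.0 CPM in Cas9, 13.4, 0 and 15.3 CPM in Cre, and 11.5, 22.9 and 10.8 CPM in Flpo. The 3 groups overlapped, and the only 0 was in Cre replicate 2. The log2 fold change of IFIT3 was −0.15 (SE 0.73) for Cre against Cas9 (edgeR adjusted p 0.934) and 0.29 (SE 0.70) for Flpo against Cas9 (edgeR adjusted p 0.836). Without Cre replicate 2 the first was 0.22, and without Flpo replicate 2 the second was −0.15.

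IFIT1 had too few counts in too many libraries to be tested. It had 1, 3 and 11 counts in Cas9, 8, 1 and 4 in Cre, and 23, 26.4 and 30 in Flpo. The scaled levels were 0.831, 1.72 and 3.14 CPM, then 3.90, 3.73 and 3.43 CPM, then 3.97, 6.74 and 4.79 CPM. On that scale Cas9 was lowest and Flpo highest with no overlap between groups, the reverse of MX1 for Cre against Flpo, but Cre replicate 2 held a single count and 2 Cas9 libraries were at or below 3. IFIT2 had 0, 4 and 9 counts in Cas9, 3, 0 and 0 in Cre, and 3, 8.99 and 5 in Flpo, and no order of the groups can be read from these. Its position overlaps LIPA on the opposite strand, and whether the counting used strand is not stated.

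ISG15, a ubiquitin-like protein that is joined to other proteins during the antiviral response, lies on the plus strand of chr1 from 1001138 to 1014540. It had 3, 7 and 5 counts in Cas9, 2, 0 and 4 in Cre, and 29, 3 and 38 in Flpo. These correspond to 2.49, 4.02 and 1.43 CPM, then 0.974, 0 and 3.43 CPM, then 5, 0.767 and 6.07 CPM. The groups overlapped, and 4 of the 9 libraries were at or below 3 counts. Its exons overlap the pseudogene AL645608.3 on the opposite strand. ISG15 is usually among the most strongly induced genes of an interferon response, and here it was not tested for want of counts.

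Over the 6 tested genes, none passed an adjusted p of 0.05 by edgeR's quasi-likelihood test in Cre against Cas9, where 0% of all tested genes did. At an unadjusted p below 0.05 there was 1 of the 6, IRF9, against 7.38% of all genes, and DESeq2 called 0 of the 9 and 4 genes in all. In Flpo against Cas9 edgeR also called 0 of the 6, where 0.227% of all genes passed. MX1 and IFI6 were the 2 at an unadjusted p below 0.05, against 20% of all genes, and DESeq2 called 0 of the 8 members for which it gave an adjusted p and 1090 of 25386 genes in all. The median log2 fold change of the 6 was 0.70 in Cre against Cas9 beside −0.22 for all tested genes, and −0.38 in Flpo against Cas9 beside 0.05. Both medians, and the count of 2 in Flpo against Cas9, include MX1. Since MX1 was chosen for a high level in these Cre libraries and a low level in these Flpo libraries, nothing is read from either median or that count.

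Levels were also compared by whether the libraries of the groups overlapped, which includes the 3 untested genes. In Cre against Cas9, 2 of the 9 genes did not overlap, IFIT1 and IRF9, both higher in Cre. Of all tested genes 9.84% did not overlap, 3.46% higher and 6.38% lower. IFIT1 was not among the tested genes and had 1 count in Cas9 replicate 1 and in Cre replicate 2. It is therefore not comparable with these shares, here or in the other comparisons. Without TMM scaling the IFIT1 levels in Flpo overlapped those in Cre and those in Cas9. In Flpo against Cas9 IFIT1 was higher and IFI6 lower without overlap, where 25% of all tested genes did not overlap, 12.9% higher and 12.2% lower. In Cre against Flpo MX1 and IRF9 were higher and IFIT1 lower, beside 43.3% of all tested genes (15.3% higher and 28% lower), and nothing is read from that count because the contrast chose MX1. The other 6 genes overlapped there.

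**Figure D2:**
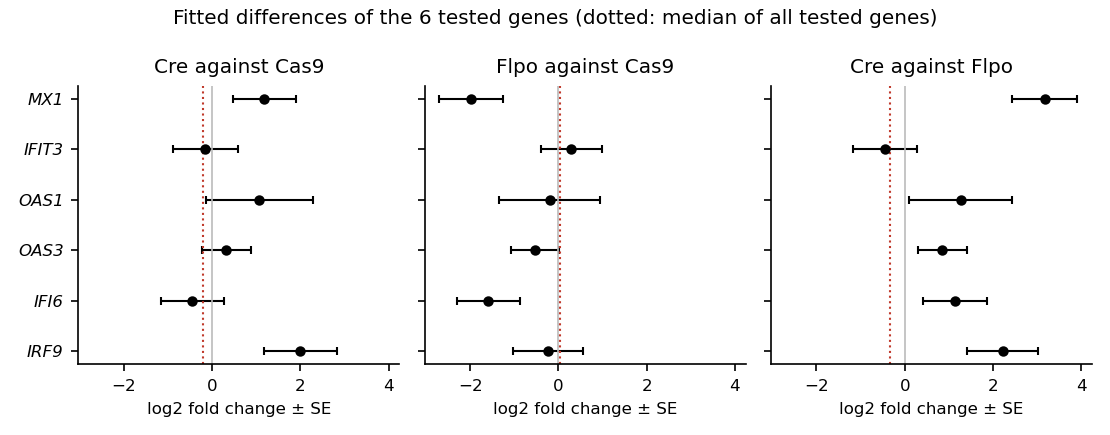
Fitted log2 fold changes of the 6 tested genes in the 3 comparisons, with bars of 1 standard error and the median of all tested genes as a line in each panel. MX1 runs from −1.98 (Flpo against Cas9) to 3.17 (Cre against Flpo), and IFIT3, whose sign like that of OAS1 changed under some alternatives, lies between −0.44 and 0.29.

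The deposited counts of MX1 followed the library totals little. They were 26.4, 19.7 and 16.8 in Cas9, 37.0, 9.09 and 39.7 in Cre, and 10.9, 22.4 and 11.8 in Flpo, a 4.37-fold range over a 41.3-fold range of totals. Summed by group MX1 had 62.8 counts in Cas9, 85.8 in Cre and 45.1 in Flpo, although the Flpo group was sequenced 7.93 times as deeply as Cre. A Cre sum above the Flpo sum occurred in 815 (6.85%) of all tested genes, and a range of counts as narrow as that of MX1 in 91 (0.764%). Among the 9215 tested genes with no 0 the median ratio of the highest to the lowest count was 38.4. Since MX1 was chosen for a high level in the shallow Cre group and a low level in the deep Flpo group, a narrow range of counts follows in part from the choice.

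IRF9 was the member most like MX1 in this respect, with counts of 7.80, 9.59 and 8.92 in Cas9, 19.2, 8.82 and 23.4 in Cre, and 10.2, 32.8 and 15.3 in Flpo. Its range was 4.21-fold. OAS3 and IFIT1 moved more with depth, with 28.2-fold and 30-fold ranges. The group sums of OAS3 were 224, 192 and 412 counts and those of IFIT1 15, 13 and 79.4 for Cas9, Cre and Flpo. MX1 was the 1 member of the 9 whose summed count was lower in Flpo than in both other groups. What sets the narrow range of MX1 was not tested.

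**Figure D3:**
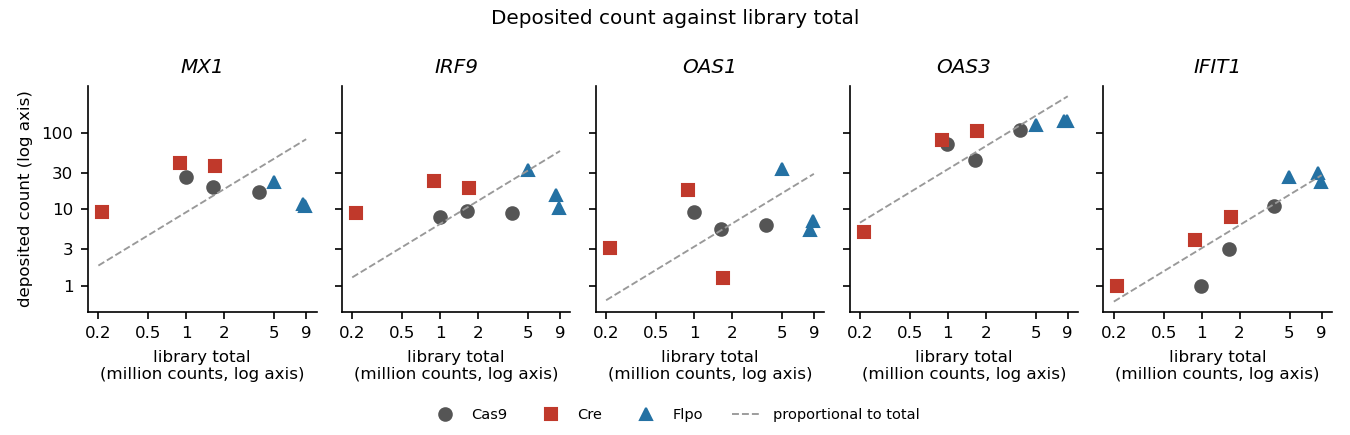
Deposited counts of MX1, IRF9, OAS1, OAS3 and IFIT1 against the total count of each library, both on log axes, with a dashed line for a count proportional to the total, drawn through the geometric mean. MX1 stays between 9.09 and 39.7 counts over the 41.3-fold range of totals, and OAS3 rises from 5.04 to 142 counts.

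The deposited values are estimated counts, in which a read matching several transcripts is shared among them. MX1, OAS1, OAS3 and IRF9 had values that were not whole in all 9 libraries, as did 47.8% of all tested genes, while ISG15 was whole in every library. Of the 24-base words in the GENCODE 29 transcripts of MX1, 1.78% also occurred in at least 10 other genes. The median over tested genes was 1.53%, and 46.7% of them were at or above MX1. The shares were 5.53% for IRF9 and 6.48% for IFIT3, above the upper quartile of 3.78%, and 0% for ISG15. The part of shared reads in the levels of these genes was not tested.

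The tested genes whose log2 level was most like that of MX1 over the 9 libraries were POLK, a translesion DNA polymerase, PML, which builds nuclear bodies and is itself interferon-stimulated, SLC16A4, L3MBTL4 and LRCH4. Their Pearson correlations with MX1 ran from 0.993 to 0.994 and their Spearman correlations from 0.95 to 1, given as a description of libraries that share their depths and groups. The counts of these 5 genes had ranges of 3.82-fold to 4.92-fold over the libraries, beside 4.37-fold for MX1. A range like that of MX1 follows in part from picking these genes for their match to it. PML had summed counts of 596 in Cas9, 614 in Cre and 574 in Flpo. Among the other interferon-stimulated genes the Pearson correlation with MX1 was 0.886 for IRF9, 0.643 for OAS1, 0.494 for OAS3, −0.12 for IFI6 and −0.37 for IFIT3. The Spearman correlations were 0.9, 0.667, 0.467, 0.0833 and 0.15 in the same order. The sign for IFI6 and IFIT3 thus depended on the measure, and both genes had 0 counts in Cre replicate 2. In the Pearson order of 11904 genes IRF9 came at place 1362 and IFIT3 at place 5881.

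**Figure D4:**
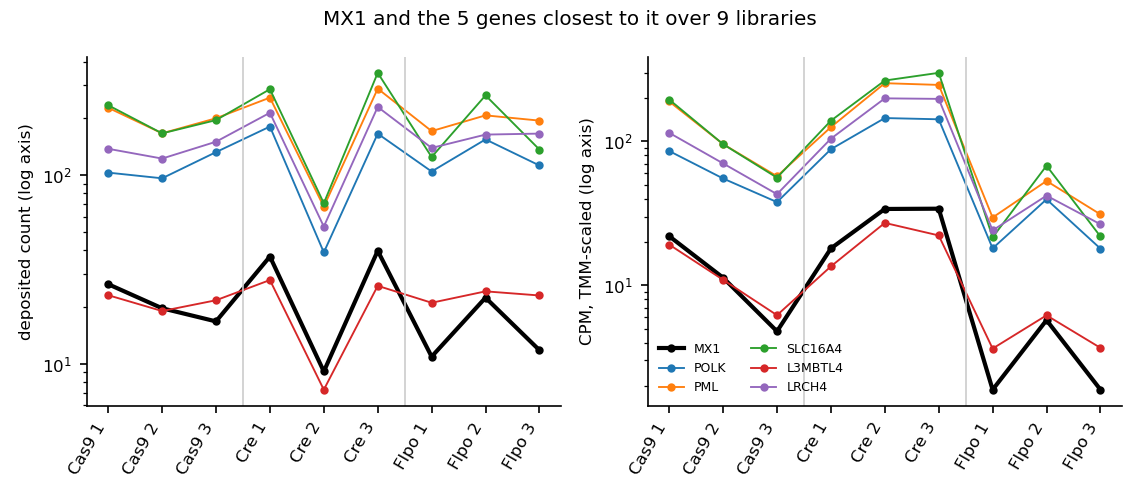
MX1 (thick line) and the 5 tested genes most like it in each of the 9 libraries, as deposited counts on the left and TMM-scaled CPM on the right, both on log axes, with grey lines between the groups. PML, picked for its match to MX1, has counts within a 4.23-fold range and CPM that follow those of MX1 (r of 0.994).

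The rest of the pathway was read from lists of its parts. No interferon gene was well measured: of 21 ligand genes 16 had 0 counts in all 9 libraries, and the other 5 reached at most 2 counts. IFNAR1 and IFNAR2, the subunits of the type I receptor, passed the threshold in no comparison. IFNAR1 was at 25.0 ± 2.02, 23.2 ± 5.62 and 25.8 ± 6.32 CPM (SD, n = 3 each) in Cas9, Cre and Flpo, and IFNAR2 at 9.42 ± 5.84, 10.9 ± 3.95 and 11.2 ± 4.28 CPM. STAT2 was at 60.6 ± 5.64, 94.2 ± 30.3 and 156 ± 50.4 CPM, and its Flpo against Cas9 log2 fold change of 1.36 (SE 0.47) had an edgeR adjusted p of 0.137 and a DESeq2 adjusted p of 0.0445. Without the 9 genes, the lists held 63 tested genes. By edgeR 0 of them passed in Cre against Cas9 (6 at an unadjusted p below 0.05, beside 7.38% of all tested genes, and 0 by DESeq2). By edgeR 0 passed in Flpo against Cas9, with 11 at an unadjusted p below 0.05 beside 20% of all tested genes. DESeq2 called 5 there, namely STAT2, SOCS3, TRIM5, TRIM25 and ZC3HAV1, and 1090 of 25386 genes in all.

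In Cre against Flpo, 2 of the 63 were higher and 10 lower by edgeR, 19% of the list beside 20.5% of all tested genes. The higher genes were IRF3, the factor that sensors of viral RNA activate, and PML. PML was at 209 ± 72.1 CPM in Cre and 37.9 ± 13.2 CPM in Flpo (SD, n = 3 each), a log2 fold change of 2.46 (SE 0.57, edgeR adjusted p 0.019). The lower genes included TRIM25, a ubiquitin ligase of the RIG-I pathway, at 18.0 ± 4.37 against 130 ± 79.8 CPM (log2 fold change −2.81, SE 0.64, edgeR adjusted p 0.0185). TRIM5, a restriction factor against retroviruses, was at 17.5 ± 1.65 against 87.8 ± 39.7 CPM (log2 fold change −2.33, SE 0.55, edgeR adjusted p 0.0194). IFITM1 and IFITM3, membrane proteins that hinder virus entry and are themselves interferon-stimulated, were lower in Cre, opposite in direction to MX1. IFITM1 was at 3.82 ± 3.21 against 103 ± 68.6 CPM (log2 fold change −5.24, SE 1.20, edgeR adjusted p 0.0185). Its Cre libraries held 2.93, 2 and 3 deposited counts, none above the floor, so the size of its difference is uncertain. IFITM3 had a log2 fold change of −3.80 (SE 0.95, edgeR adjusted p 0.0212). SOCS3, an inhibitor of cytokine signalling, had 0 counts in all Cre libraries and 22.2 ± 14.1 CPM in Flpo, at least 1.98-fold higher than the 3-count floor of Cre replicate 2 (edgeR adjusted p 0.0185). The calls were lost while the fold changes stayed of like size when single libraries were left out. Without Cre replicate 2, without Cre replicate 3 or without Flpo replicate 1 no gene passed in Cre against Flpo, and the log2 fold changes were −2.69, −2.70 and −2.72 for TRIM25, −5.69, −5.18 and −4.76 for IFITM1 and 2.32, 2.24 and 2.39 for PML. Without Flpo replicate 3 IFITM1 alone of the 6 genes given with values passed. With the library-total covariate no gene passed, and the log2 fold changes were −1.09 for TRIM25, −1.16 for IFITM1, −1.21 for IFITM3, −1.30 for TRIM5 and 0.75 for PML. TRIM5 also lost its call without TMM scaling (−1.52, edgeR adjusted p 0.0538).

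Markers of other cell types were read beside these values. In bulk RNA, fewer cells of a type and less RNA per cell cannot be told apart. Fibroblast markers summed to 264 to 894 CPM in Cas9, 550 to 6482 CPM in Cre and 253 to 326 CPM in Flpo, highest in Cre replicate 2, and 4 of the 5 were seen in all 9 libraries. All 3 Cre libraries lay above all Flpo libraries for these markers. Immune markers summed to 96.5 to 257 CPM in Cas9, 131 to 263 in Cre and 113 to 192 in Flpo, with CD3E at 0 counts and CD14 at no more than 2. Of the plasmacytoid dendritic cell markers, cells known for high interferon output, IL3RA was at 0 and CLEC4C had at most 2.00 counts, while LILRA4 was above the floor in all 9 libraries, at 8.87 to 83.5 CPM. With LILRA4 the list summed to 21.1 to 38.9 CPM in Cas9, 24.9 to 61.9 in Cre and 9.19 to 83.5 in Flpo. The 8 HEK293 markers summed to 584 to 1391 CPM in Cas9, 511 to 1095 in Cre and 1586 to 5375 in Flpo, so that every Flpo library lay above every other library, and 4 of the 8 were above the floor in all 9 libraries. The part of the markers in the values of the interferon-stimulated genes was not tested.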

How the data were processed

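Gene abundances were measured by RNA-seq in 9 libraries of HEK293 cells. The deposited values are estimated counts per gene symbol, made by the authors with Salmon 0.14.1 against hg38, per the submitters' processing notes. The annotation, library type and filters are not given in the sources used here. The design had assumed whole counts, so the values were rounded for the tests. Genes with at least 10 counts in the smallest group's number of libraries, scaled to library size, and 15 in all were tested with edgeR 4.0.16 (TMM, quasi-likelihood) in R 4.3.3, in 1 fit of the 3 groups, with Benjamini-Hochberg adjustment over all 11905 genes and a threshold of 0.05. DESeq2 1.42.0 was an alternative. The standard error was taken from the fold change and its F statistic. The procedure was tested on simulated data. A chi-square statistic over genes, divided by its degrees of freedom, was at least 12.5 for every pair of libraries, so none were counted as the same sample. A count of 3 was taken as the floor, which covers counting error only.

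The rule named all 9 genes, from the pathway lists up to 6 past the threshold in each comparison by smallest p, and the 5 genes most like MX1 by Pearson correlation of log2 level. IFNAR1, IFNAR2, STAT2, IRF3 and the genes only DESeq2 called were named after their values were seen. The genes, lists, markers and motifs were chosen with earlier results of these data known, so no count over them is independent evidence. Gene positions are from GENCODE 29 and promoters from RefSeq GRCh38.p14.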

Additional observations from a re-analysis of the deposited data

How the results depend on the processing

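In Cre against Cas9 0 genes passed in every fit that left out 1 library, while DESeq2 called 4 and edgeR without a low-count filter 51. In Flpo against Cas9 the 27 genes became 12 without TMM, 1090 with DESeq2, 1169 without a filter, 157 with 10 counts in at least 3 libraries, 0 with only the groups compared (2807 unadjusted), 0 with log2 total as a covariate (1791 unadjusted) and 0 to 2685 when leaving out 1 library. In Cre against Flpo the 2440 genes became 4023 with DESeq2, 0 with the covariate (731 unadjusted) and 0 to 5559 when leaving out 1 library (0 without Cre replicate 2, Cre replicate 3 or Flpo replicate 1, 405 without Flpo replicate 3, 1386 without Cas9 replicate 2, 5559 without Flpo replicate 2). Without TMM 2039 of 2879 calls were higher in Cre, against 735 of 2440, and the median of all genes moved from −0.34 to 0.44. The cause was not tested. The labels do not say whether replicate numbers pair the libraries. The mean correlation of deviations between libraries of the same number was −0.33, −0.09 and 0.12. Single values ran from −0.55 to 0.53, and so few libraries cannot decide whether they were paired. The replicate block gave 0 (565 unadjusted), 6 and 1568 genes, with MX1 at 1.31, −2.03 and 3.34.

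Of the member fold changes, none that reversed had passed the threshold. Cre against Cas9 reversed for IFIT3 without TMM (0.0836), with the covariate (0.0415), without Cas9 replicate 1 (0.06) and without Cre replicate 2 (0.22), for OAS1 with the covariate (−0.46) and without Cre replicate 3 (−0.27), for IFI6 with the covariate (0.0534), and for OAS3 without Cre replicate 3 (−0.0654). Flpo against Cas9 reversed for IFIT3 without TMM (−0.23), with the covariate (−0.0340), without Cas9 replicate 2 (−0.05) and without Flpo replicate 2 (−0.15), for OAS1 with the covariate (2.01), without Cas9 replicate 1 (0.47), Flpo replicate 1 (0.03) and Flpo replicate 3 (0.30), and for IRF9 with the covariate (1.21), without Cas9 replicate 1 (0.02) and Flpo replicate 3 (0.06). Leaving out 1 library gave −0.50 to 0.22 for IFIT3, −0.27 to 1.75 for OAS1 and −0.0654 to 0.77 for OAS3 in Cre against Cas9, and −0.15 to 0.50 for IFIT3, −1.94 to 0.47 for OAS1 and −1.21 to 0.0644 for IRF9 in Flpo against Cas9. In Cre against Flpo, described without a test, OAS1 went from 1.27 to −2.47 with the covariate and −0.0912 without Cre replicate 3, IRF9 from 2.23 to −0.28 with the covariate, and IFIT3 from −0.44 to 0.31 without TMM, 0.0754 with the covariate and 0.0237 without Flpo replicate 2. Depth limits every gene in Cre replicate 2, where 3 counts are 11.2 CPM.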
